A study of Mus musculus with 30 samples.

Results

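The genes described here are the potassium channel genes of the mouse hippocampus, taken as every gene of the deposited table whose symbol begins with Kcn and whose normalized counts sum to at least 300 over the 30 libraries. This rule gave 71 genes of the 90 with such a symbol in the table, which holds 21412 genes in all. A normalized count is a gene's read count divided by 1 size factor for its library. The threshold uses the total over all libraries, though the gene family was picked with earlier results of these data known. Just inside the threshold were Kcnh5 with a sum of 314.9 and Kcnj14 with 328.34, and just outside were Kcna5 with 269.03 and Kcne4 with 267.31. The 19 rows left out include a further identifier of Kcnb2 (219.68), and the microglial channels Kcna3 (103.93) and Kcnn4 (57).

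Potassium channels let potassium ions leave or enter a cell and so set its resting potential, shape and end its action potentials, and limit how often it fires. The family joins pore subunits that open with voltage (Kv), with intracellular calcium or sodium, inward rectifiers that pass current best near rest (Kir), and tandem-pore leak channels that are open at rest. Accessory subunits bind the pores and change their gating, and electrically silent Kv subunits carry no current alone but alter the pores they join. In the hippocampus, A-type Kv4 channels act in the dendrites of pyramidal cells, calcium-activated SK channels give the afterhyperpolarization, Kv7 channels carry the M current, and Kir channels of astrocytes take up potassium released by neurons.

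The samples were hippocampi of male BALB/c mice from Taconic, 2 to 3 weeks old on arrival and housed one to a cage on an AIN-93G purified diet, with 5 mice in each of 6 groups. Ctr mice received feed with the cysteine carrier and no methylmercury (MeHg), an organic mercury compound that enters the brain. LD mice received 0.28 mg and HD mice 5 mg MeHg per kg feed, and all 3 diets were given for 11 weeks. The Se_Ctr, Se_LD and Se_HD groups repeat these 3 mercury levels by name with added selenium, given per the series title as selenium-methionine. Neither the selenium dose nor whether the mercury doses of these groups equal those of LD and HD is given in the sources used here, so comparisons across the diets are between groups of like name. Each library is 1 mouse, so the spread described is between mice.

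The libraries held between 5768208 and 11510521 reads on genes, with a group median from 7119788 in Ctr to 10159514 in HD mice. Several libraries stood apart. In Ctr replicate 2, the shallowest, 6 channel genes (Kcna2, Kcnh5, Kcnk9, Kcnma1, Kcnn3 and Kcnq3) lay more than 1 log2 unit above their median in the other libraries, against 3 or fewer in each of the other 29 libraries. More than 1 unit below lay 5 channel genes in Se_Ctr replicate 4, 4 in Ctr replicate 1 and 3 or fewer in each of the others. Over all genes that average 10 or more counts, HD replicate 2 had the most above, 685 against 237 in Ctr replicate 2.

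Levels are compared between genes as normalized counts per kb of exon, averaged over the 30 libraries. The highest was Kcnab2 at 828, an accessory subunit of Kv1 channels, followed by Kcnj10 at 708, the main Kir subunit of astrocytes, Kcnip2 at 386, which binds Kv4 pores, and Kcnj3 at 313, a G protein-gated Kir subunit. Kcnd2, an A-type pore, was at 277. The lowest were Kcnh6 at 3.48, Kcnmb1 at 2.97 and Kcnh5 at 2.59. Kcnab2 was highest in the means of all groups but HD, where Kcnj10 (869) lay above Kcnab2 (743). Kcnip2 ranked next in every group, and the order of the genes after it varied between groups. Without division by length, Kcnab2 and Kcnj10 were also among the 5 highest.

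**Figure D1:**
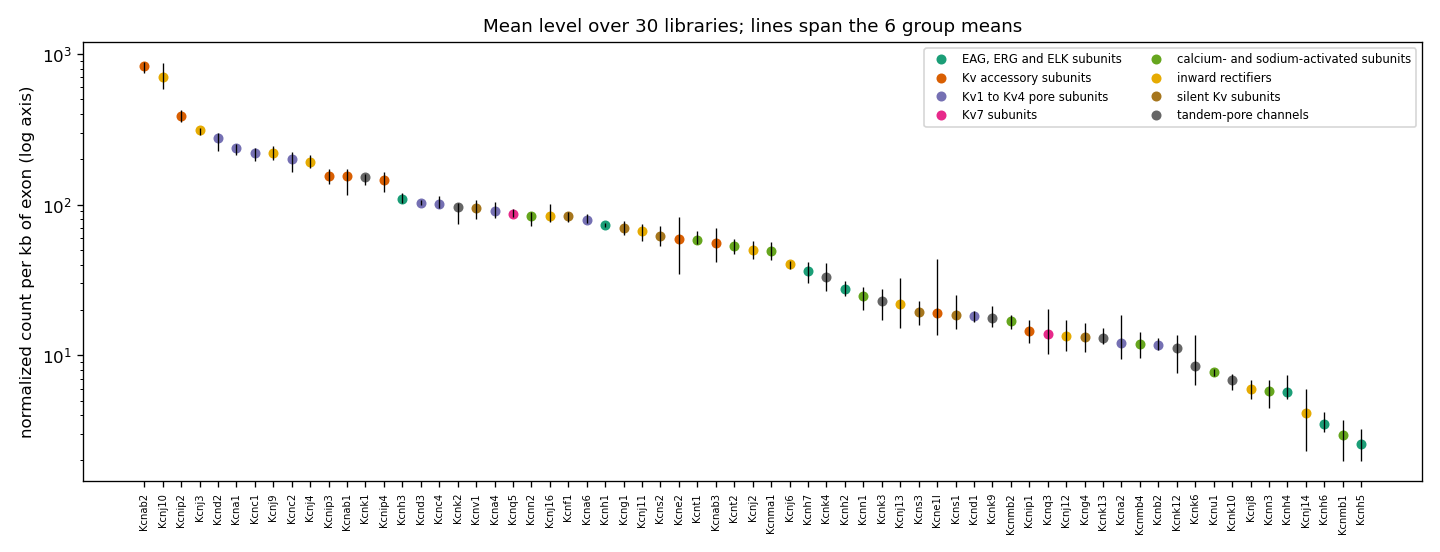
Mean normalized count per kb of exon over 30 libraries for the potassium channel genes named on the x axis, on a log axis and in falling order, with colour marking the family. Vertical lines span the 6 group means. They are longest for Kcne1l, Kcnj14 and Kcne2. The highest gene, Kcnab2, lies at 828 and the lowest, Kcnh5, at 2.59.

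The first comparison asks what the high dose of mercury did on the control diet. In HD mice 14 channel genes were lower than in Ctr mice and 3 were higher by limma's moderated test (unadjusted p under 0.05), and 54 did not pass. A gene is said to pass, rise or fall by that threshold throughout. The 14 lower genes are 19.7% of the 71, where 3.26% of all 20031 genes tested were called lower. The 3 higher genes are 4.23%, where 5.08% of all genes were called higher. Restricted to genes that average 10 or more normalized counts, the background shares were 3.67% lower and 4.95% higher. Of the 71 fold changes 53 were below zero, and their median was -0.19 on the log2 scale, against 0.0067 over all genes tested. In the limma fit of the control-diet libraries, no channel gene passed after Benjamini-Hochberg adjustment over all genes (0 of 71, where 26 genes or 0.13% of all genes passed). The lowest adjusted p was 0.109, for Kcnk2. edgeR on the recovered reads also called 0 channel genes after adjustment (0.225% of all genes), and DESeq2 called 3 (Kcnab1, Kcnk2 and Kcnk3, where 0.867% of all genes passed). limma on all 30 libraries in one fit called 6 (the same 3 with Kcnab3, Kcnip4 and Kcnn1, where 0.935% of all genes passed), and without HD replicate 3 limma called 1 (Kcnab1, where 0.382% passed). In bulk tissue a lower count can come from fewer cells of a type or from less RNA per cell, and these cannot be told apart here.

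The lower genes came from 7 of the 8 families. They were 3 of 13 Kv1 to Kv4 pore subunits (Kcnd2 and Kcnc4 among them), 3 of 9 Kv accessory subunits (Kcnab1, Kcnab3 and Kcnip4), 2 of 9 tandem-pore channels (Kcnk2 and Kcnk3), 2 of 7 silent subunits (Kcns1 and Kcns3), 2 of 10 calcium- and sodium-activated subunits (Kcnn1 and Kcnn2), 1 of 7 EAG, ERG and ELK subunits (Kcnh7) and 1 of 4 Kv7 subunits (Kcnq3). Of 12 inward rectifiers 0 were lower and 1, Kcnj16, was higher by limma's unadjusted test. Family medians of the log2 fold change lay between -0.24, in the Kv1 to Kv4 pore subunits, and -0.014, in the Kv7 subunits.

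**Figure D2:**
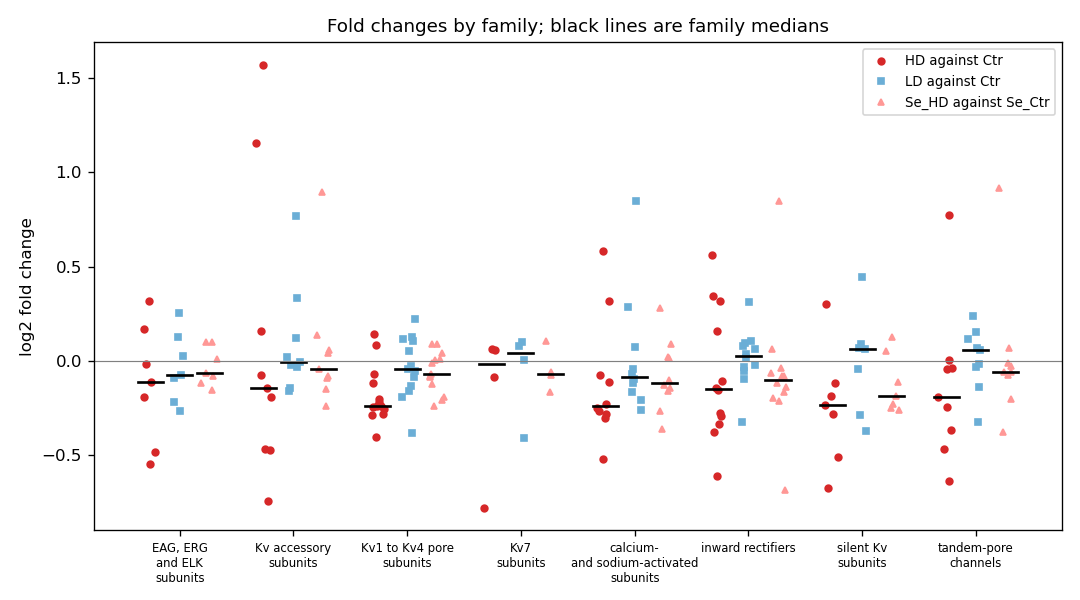
Log2 fold change of each of the 71 genes, by family, for HD against Ctr (circles), LD against Ctr (squares) and Se_HD against Se_Ctr (triangles). Black lines are family medians. The HD medians lie below zero in all 8 families, from -0.24 to -0.014.

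Promoter sequences of 4 genes are shown so that the start regions of channels that were lower or higher in HD mice can be read beside their values. They are the 3 lower genes with the smallest p among those with an entry, Kcnk2, Kcnab1 and Kcnip4, and the higher gene Kcnj16. Each runs from 250 bases before to 50 bases after the most upstream start site listed by RefSeq (build GRCm38.p6, which differs from the NCBIM37 build of the counts), and other start sites are listed for each gene. Kcnk2 lies at chr1:189402224-189402523 (minus strand), Kcnab1 at chr3:64948962-64949261 (plus strand), Kcnip4 at chr5:49285610-49285909 (minus strand) and Kcnj16 at chr11:110967783-110968082 (plus strand). Capitals mark matches to the motifs searched, which here are GC boxes.
Kcnk2: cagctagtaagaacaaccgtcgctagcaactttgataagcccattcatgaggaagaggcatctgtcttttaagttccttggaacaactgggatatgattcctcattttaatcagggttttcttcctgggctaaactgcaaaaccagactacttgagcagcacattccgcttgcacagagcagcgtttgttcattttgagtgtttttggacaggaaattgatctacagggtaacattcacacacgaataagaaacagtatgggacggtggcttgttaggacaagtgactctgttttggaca
Kcnab1: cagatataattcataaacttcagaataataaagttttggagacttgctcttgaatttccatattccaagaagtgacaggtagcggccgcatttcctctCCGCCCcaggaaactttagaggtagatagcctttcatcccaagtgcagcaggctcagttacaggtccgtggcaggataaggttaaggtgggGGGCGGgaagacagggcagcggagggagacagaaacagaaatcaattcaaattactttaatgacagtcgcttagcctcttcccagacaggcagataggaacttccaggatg
Kcnip4: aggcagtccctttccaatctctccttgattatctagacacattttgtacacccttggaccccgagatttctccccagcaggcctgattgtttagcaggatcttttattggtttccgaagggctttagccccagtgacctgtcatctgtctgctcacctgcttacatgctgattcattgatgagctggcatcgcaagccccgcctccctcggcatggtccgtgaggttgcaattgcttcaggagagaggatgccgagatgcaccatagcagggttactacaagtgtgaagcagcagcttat
Kcnj16: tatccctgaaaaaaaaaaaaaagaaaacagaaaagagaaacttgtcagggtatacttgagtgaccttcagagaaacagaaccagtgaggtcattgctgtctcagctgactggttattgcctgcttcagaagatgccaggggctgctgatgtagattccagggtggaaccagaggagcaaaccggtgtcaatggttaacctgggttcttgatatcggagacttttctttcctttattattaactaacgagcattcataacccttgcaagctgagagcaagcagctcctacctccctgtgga

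The motifs were the GC box (GGGCGG), the cAMP response element (TGACGTCA), the TATA box (TATAAA), the antioxidant response element (TGACNNNGC) and the metal response element (TGCACNC or TGCGCNC), each searched on both strands. Kcnab1 holds 2 GC boxes, and the windows of Kcnk2, Kcnip4 and Kcnj16 hold none of these letters. An entry was found for 50 of the 71 genes. GC boxes were present in 28 of these 50 (56%), against 35.92% of all 27025 promoters. Antioxidant response element letters were present in 9 (18%, against 12.44%), metal response element letters in 17 (34%, against 25.62%), the TATA box in 2 (4%, against 14.16%) and the cAMP response element in 0 (against 1.85%). The median GC content was 61.7% in the 50 channel promoters and 52.7% in all promoters. Among the 9 lower genes with an entry, 6 held a GC box and 2 held each of the antioxidant and metal response element letters. Among the genes with no entry were Kcna1, Kcnab3, Kcnb2, Kcnd1, Kcng1, Kcnh3, Kcnj11, Kcnj14, Kcnk3, Kcnk6, Kcnk9, Kcnn2, Kcnq3, Kcns2, Kcnt1, Kcnu1 and Kcnv1.

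Among the leak channels, Kcnk2 (ENSMUSG00000037624, NCBIM37 chr1:191031816-191167711), a tandem-pore channel that answers to stretch, lipids and temperature, had the smallest p of the 71 genes. Its normalized counts in the 5 Ctr mice were 413, 308, 419, 325 and 390.0, and in the 5 HD mice 284, 223, 286, 292 and 249.96. Every HD library lay below every Ctr library. The means were 371 ± 51.3 (SD, n = 5) and 267 ± 29.6 (SD, n = 5), a difference of -0.47 on the log2 scale (standard error 0.11). The exact two-sided permutation p was 0.00794, the smallest that 5 against 5 allows. In LD mice Kcnk2 was at 364 ± 17.1 (SD, n = 5), close to Ctr.

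Kcnk3 (ENSMUSG00000049265, chr5:30890543-30927643), an acid-sensitive leak channel, was at 141, 78.3, 121, 81.1 and 104 normalized counts in Ctr mice and at 64.6, 63.7, 59.3, 64.3 and 76.7 in HD mice. Here too every HD library lay below every Ctr library, and the HD mice were close to each other. The log2 fold change was -0.64 (standard error 0.16). The third leak channel that passed, Kcnk6 (ENSMUSG00000046410, chr7:30006947-30017541), moved the other way. It stood at 43.5, 23.8, 31.2, 24.8 and 38.4 in Ctr mice and at 75.3, 70.2, 33.15, 46.6 and 59.2 in HD mice. Of the HD libraries 4 lay above every Ctr library, and the log2 fold change was 0.78 (standard error 0.25).

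The accessory subunits held both falls and the largest rise among the genes that passed. Kcnab1 (ENSMUSG00000027827, chr3:64913306-65182145), which gives Kv1 channels fast inactivation, was at 1319.8, 1179, 1574, 1383 and 1427 in Ctr mice and at 986, 863, 1259.7, 1051 and 829 in HD mice. Of the HD libraries 4 lay below every Ctr library, and HD replicate 3 overlapped them. The log2 fold change was -0.47 (standard error 0.12). Kcnip4 (ENSMUSG00000029088, chr5:48780743-49915940), which binds Kv4 pores, was at 448, 466, 392, 471 and 416 in Ctr mice and at 334, 236, 360.3, 345 and 322 in HD mice. The groups did not overlap, and the log2 fold change was -0.47 (standard error 0.13). Kcnab3 fell from 201 ± 71.9 (SD, n = 5) to 120 ± 38.1 (SD, n = 5), by 0.74 on the log2 scale, with 4 of 5 HD libraries below every Ctr library.

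Kcne1l (ENSMUSG00000090122, chrX:138739295-138740837), a small single-pass subunit that acts on Kv pores, was at 29, 27.2, 12.3, 21.4 and 19.2 in Ctr mice and at 53.8, 188, 15.7, 38.6 and 40 in HD mice. HD replicate 2 was far above the rest and HD replicate 3 lay among the Ctr mice. The log2 fold change of 1.16 (standard error 0.43) was 0.67 without HD replicate 2, where it no longer passed.

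Of the pore subunits, Kcnd2 (ENSMUSG00000060882, chr6:21165503-21679805), the A-type pore of pyramidal cell dendrites, was at 1468, 1484, 1438, 1686 and 1614 in Ctr mice and at 1173, 952, 1447, 1330.1 and 983 in HD mice. All but HD replicate 3 lay below every Ctr library, and the log2 fold change was -0.40 (standard error 0.13). Kcnc4 (-0.26), a pore of the Kv3 group known from fast-spiking cells, fell by less. Its groups overlapped, and it lost its call in 4 of 10 fits that left out 1 library. Kcnh7 (-0.48), an ERG-type pore, lay below every Ctr library in 4 of 5 HD mice. The silent subunits Kcns1 (-0.67) and Kcns3 (-0.51) lay below every Ctr library in 4 and 2 of 5 HD mice. The abundant pores Kcna1 (-0.24), Kcnc1 (-0.29), Kcnc2 (-0.24) and Kcnd3 (0.14) did not pass. Of these, Kcna1, Kcnc1 and Kcnc2 had fold changes close to that of Kcnc4, which passed.

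Of the calcium-activated SK subunits, Kcnn1 and Kcnn2 were lower, and Kcnn3 did not pass. Kcnn3 was at 4.83 to 42.5 in Ctr and 16.9 to 23.3 in HD mice, with a log2 difference of 0.32 (standard error 0.41). Kcnn1 (ENSMUSG00000002908, chr8:73365948-73380907) was at 139, 98.7, 102, 115 and 119 in Ctr mice and at 95.5, 58, 83.8, 91.6 and 73.3 in HD mice, with no overlap. The difference was -0.52 on the log2 scale (standard error 0.15). Kcnn2 fell by less, by 0.27 on the log2 scale, with 4 of 5 HD libraries below every Ctr library, and lost its call in 2 of 10 fits that left out 1 library. The large-conductance pore Kcnma1 had a log2 fold change of -0.11 and did not pass.

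Kcnq3, a subunit of the M channel, shows what 1 library can do. It was at 31.4, 126, 35.9, 36.1 and 37.1 in Ctr mice, and at 39, 18.8, 22.7, 24.9 and 28.3 in HD mice. Ctr replicate 2, at 126, was far above the rest. The log2 fold change was -0.78, and without Ctr replicate 2 it was -0.42 and did not pass. Kcna2 was at 175 in the same library and at 32.6 to 40.6 in the other 4 Ctr mice. Without Ctr replicate 2 the number of lower channel genes was 18, of which 13 were among the 14 above.

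Of the inward rectifiers 8 of 12 had fold changes below zero, and Kcnj16 passed. Kcnj16, which pairs with Kcnj10, was at 264, 371, 289, 363 and 259.6 in Ctr mice and at 355, 451, 321, 338 and 512 in HD mice, with overlap. The difference was 0.35 on the log2 scale (standard error 0.16). It did not pass in 5 of 10 fits that each left out 1 library, and was 0.14 without HD replicates 2 and 5. Kcnj10 had a log2 fold change of 0.32 and did not pass. The G protein-gated subunits Kcnj3 (-0.14) and Kcnj6 (-0.11) did not pass either.

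**Figure D3:**
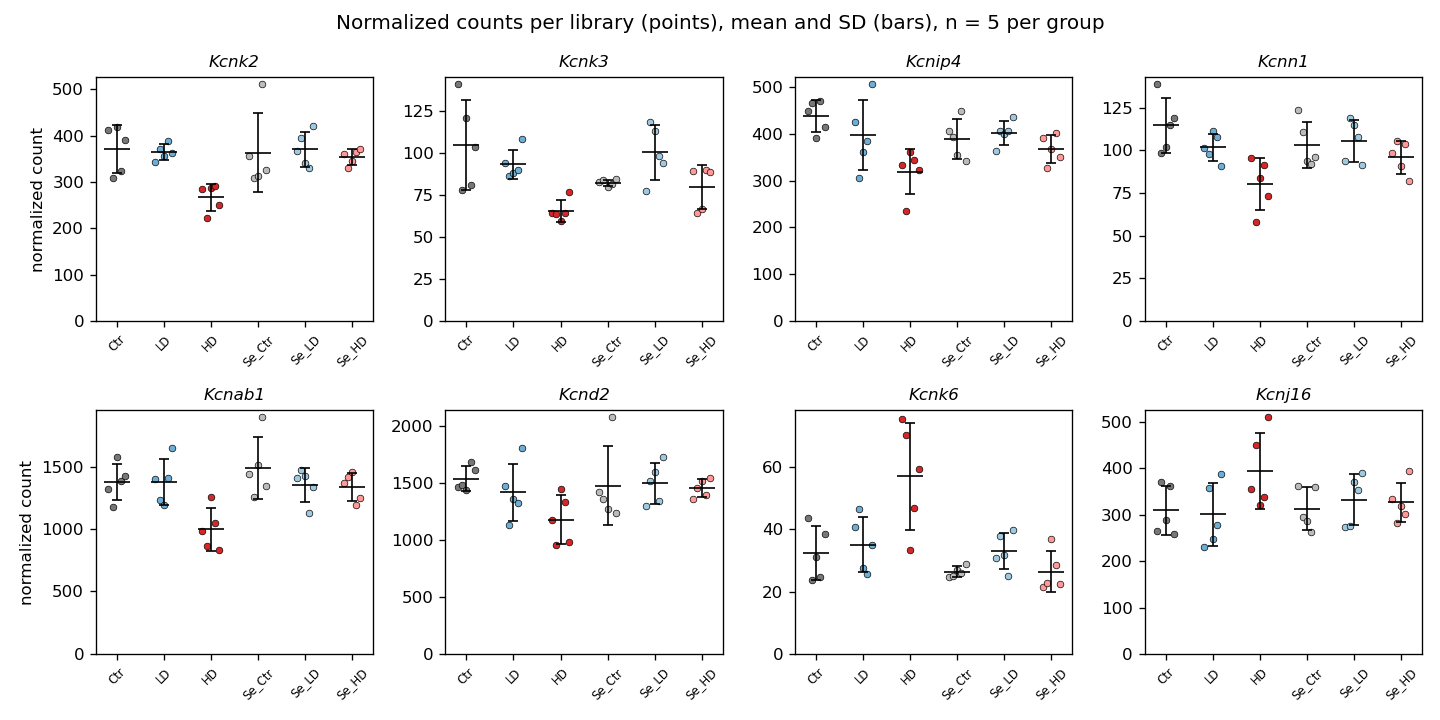
Normalized counts of 8 potassium channel genes in every library of the 6 groups, with the group mean and SD (n = 5). For Kcnk2, Kcnk3, Kcnip4 and Kcnn1 all 5 HD libraries lie below all 5 Ctr libraries. For Kcnk6 and Kcnj16 the HD means, 56.9 and 395, lie above the Ctr means, 32.3 and 309.

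In all, 4 of the 71 genes (5.63%) had every HD library below every Ctr library, where 0.734% of all genes tested did, and 0 had every HD library above, where 0.978% of all genes did. The median over the 71 genes of the log2 difference from the Ctr mean was -0.09, -0.37, -0.05, -0.15 and -0.17 in HD replicates 1 to 5, and lay between -0.07 and 0.03 in the Ctr mice. HD replicate 2 was lowest, and HD replicate 3 lay within the Ctr range. A score is the mean log2 difference of a list's genes from the Ctr mean. For the 12 excitatory neuron markers it was 0.20, -0.46, -0.06, -0.15 and -0.38 in HD replicates 1 to 5. In the Ctr mice it lay between -0.13 and 0.09.

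Markers of other cell types moved in the same HD libraries. All 16 microglia markers were higher in HD mice (among them Tyrobp by 1.71 and C1qb by 1.71 on the log2 scale), and the score lay between 0.35 and 1.85 in HD mice and between -0.08 and 0.14 in Ctr mice. Summed microglia counts were 4632.4 to 11696.4 in HD and 3574.3 to 3956.9 in Ctr mice. Of 12 astrocyte markers 5 were higher (Gfap by 2.39), of 12 interneuron markers 3 were lower (Gad1 by 0.45), and of 12 excitatory neuron markers 2 were lower (Tbr1 among them). Of the other lists, 1 of 12 oligodendrocyte markers was lower, 2 of 12 choroid plexus, 1 of 8 thalamus and 2 of 8 striatum markers were higher, and 0 of 14 endothelium and mural cell and 0 of 6 erythrocyte markers passed the unadjusted limma test. All 12 choroid plexus markers nonetheless had fold changes above zero (median 1.46, against 1.09 for microglia), and all 6 erythrocyte markers below zero (median -0.60). In HD replicate 2 the summed striatum count was 1783.3 (score 0.60), against 500.2 to 762.1 in Ctr mice. The part of these shifts in the channel genes was not tested. Kcnn4, below the threshold at a mean of 1.9 counts, was higher by 1.19 in HD mice. It is a single gene of very low count and not among the genes described here. For Kcna3, the other microglial channel below the threshold, no HD value is given. The tandem-pore channel Kcnk13, above the threshold, averaged 37.0 counts in HD and 38.0 in Ctr mice, with overlap, and did not pass. With HD replicates 2 and 5, which had the highest microglia scores, left out, 11 channel genes were lower, 10 of them among the 14, and 2 were higher. Kcnd2 (-0.23), Kcnh7 (-0.34) and Kcnq3 were among those that no longer passed. Higher channel genes numbered 5 without Ctr replicate 2, 5 without HD replicate 4 and 1 without HD replicate 2.

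Genes that work with the channels were read from a list of 22 measured partners. In HD mice 6 of the 22 were lower and 0 were higher, where 3.26% and 5.08% of all genes were. The lower ones were Lgi2 (-0.65), Abcc8 (-0.53), the sulfonylurea receptor of the Kir channel that Kcnj11 forms, Dpp10 (-0.40), a Kv4 accessory protein, Amigo1 (-0.34), which joins Kv2 channels, Hcn2 (-0.25) and Cntn2 (-0.20). Of 12 genes for the sodium-potassium pump, cation-chloride cotransport and Aqp4, 3 were higher (Aqp4 by 0.97, Slc12a4 by 0.40 and Atp1b2 by 0.40) and 1 was lower (Slc12a5 by 0.28, the neuronal chloride extruder).

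The second comparison asks whether the low dose did the same. In LD mice 2 channel genes were higher and 0 were lower than in Ctr mice, where 1.67% of all genes were called higher and 1.34% lower. The unadjusted limma test thus gave no lower channel gene, and after adjustment 0 genes of any kind passed (0.0%, also 0 channel genes with edgeR and with DESeq2). The median log2 fold change was -0.02. Kcnip1, a Kv4 accessory subunit, was at 90.6, 76.6, 90.7, 83.4 and 75.4 in Ctr mice and at 107, 88.8, 88.1, 123 and 123 in LD mice, with overlap and a log2 fold change of 0.33. Kcnmb1, a subunit of the large-conductance channel, rose by 0.85 on the log2 scale from a mean of only 8.28 counts. For the 14 genes lower in HD mice, the LD fold changes lay between -0.41 and -0.0044. The Ctr libraries are shared by both comparisons, so these values are not separate evidence. Kcnip1 did not pass in 5 of 10 fits that each left out 1 library, while Kcnmb1 passed in all 10, and the count of 2 was 1 without Ctr replicate 5 or LD replicate 5. Of 8 thalamus markers 2 were higher in LD mice, with a score of 1.56 in LD replicate 5. Of the other lists, 1 of 12 interneuron and 1 of 12 excitatory neuron markers were higher, 1 of 14 endothelium and mural cell and 1 of 6 erythrocyte markers were lower, and all 12 choroid plexus markers were above zero (median 0.69) with 0 passing. Their part was not tested.

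HD and LD mice were also compared directly. In HD mice 14 channel genes were lower than in LD mice (2.51% of all genes) and 3 were higher (4.45% of all genes). After adjustment 0 channel genes passed in limma, where 10 genes (0.0499%) did, 0 in edgeR (0.19% of all genes) and 3 in DESeq2 (Kcnab1, Kcne1l and Kcnk2, where 0.796% of all genes passed). limma on all 30 libraries called 2 (Kcnab1 and Kcnk2, where 0.659% passed), and without HD replicate 3 it called 1 (Kcnab1, where 0.362% passed). Kcnk2 was lower by 0.45 and Kcnab1 by 0.47 on the log2 scale. Kcnip1, higher in LD than in Ctr mice, was lower by 0.48. In this comparison 15 of 16 microglia (median 1.03) and 8 of 12 astrocyte markers were higher, and 3 of 12 interneuron, 2 of 12 excitatory neuron, 2 of 12 oligodendrocyte and 1 of 8 thalamus markers were lower. All 12 choroid plexus markers were above zero (median 0.70) with 0 passing, and the part of these markers was not tested. Without HD replicate 2, 11 genes in all passed in place of 17.

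The third comparison asks the same of the high dose on the selenium diet, with no library in common with the first. In Se_HD mice 4 channel genes were lower (5.63%, where 1.76% of all genes were) and 1 was higher (1.41%, where 2.43% of all genes were) than in Se_Ctr mice. The lower ones were Kcnj11 (-0.22), the pore of the ATP-sensitive channel, Kcnip3 (-0.24), a calcium sensor that binds Kv4 pores, Kcna4 (-0.24), an A-type Kv1 pore, and Kcnj14 (-0.68), at a mean of 6.05 counts in Se_HD mice. Kcnk12, a leak channel subunit, was higher by 0.92. It was at 24.7, 11.2, 16.4, 4.48 and 16.6 in Se_Ctr and at 20.6, 34.5, 25.5, 17.1 and 33.7 in Se_HD mice, with overlap. After adjustment 0 genes of any kind passed with limma (0.0%), and edgeR and DESeq2 gave 0 channel genes. No channel gene had every Se_HD library below or above every Se_Ctr library, where 0.32% and 0.478% of all genes did. The median log2 fold change of the 71 genes was -0.08, and 48 were below zero. The count of 5 was 3 without Se_Ctr replicate 3 or 4 or Se_HD replicate 2 or 4, and 2 without Se_HD replicate 5. Kcna4 and Kcnj14 each lost the call in 6 of 10 fits that left out 1 library. Kcna4 was at -0.14 without Se_HD replicate 4, and Kcnk12 at 0.58 without Se_Ctr replicate 4, neither passing.

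The 14 genes that were lower in HD mice had log2 fold changes between -0.23 and 0.10 in Se_HD against Se_Ctr mice, with a median of -0.07, and 11 of the 14 were below zero. None of them passed. Kcnk2 was at 357, 308, 313, 512 and 325 in Se_Ctr and at 361, 329.6, 345, 364 and 372 in Se_HD mice. The difference was -0.0091 on the log2 scale, with a 95% interval from -0.24 to 0.22. Kcnk3 was at 82.6, 83.8, 79.7, 81.5 and 84.4 in Se_Ctr and at 89.2, 64.5, 67, 89.9 and 88.7 in Se_HD mice, with overlap. Kcnab1 was at 1439, 1259, 1515, 1898 and 1345 in Se_Ctr and at 1365, 1419, 1456, 1193 and 1245 in Se_HD mice, and its log2 fold change of -0.15 had an interval from -0.35 to 0.05. The microglia score lay between 0.06 and 0.24 in Se_HD mice, and 0 of 16 microglia markers passed there. Of 12 astrocyte markers 3 were higher and of 12 interneuron markers 1 was lower, and all 12 excitatory neuron markers had fold changes below zero (median -0.15), with 0 passing limma's unadjusted test. All 12 choroid plexus markers were above zero (median 0.73) with 0 passing, and 1 of 14 endothelium and mural cell markers was higher.

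**Figure D4:**
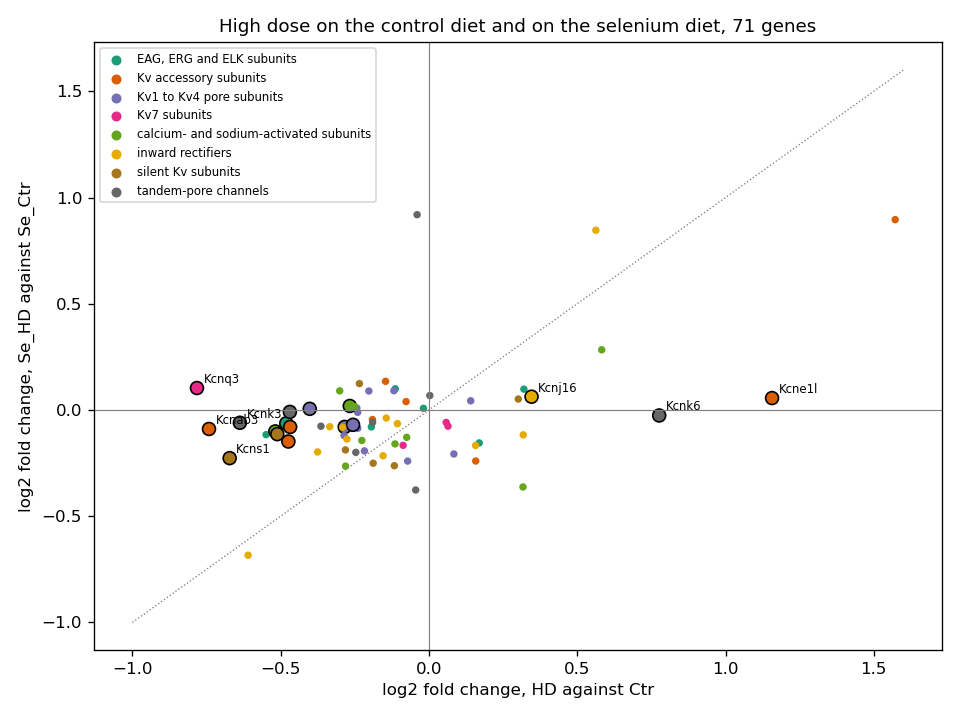
Log2 fold change of the 71 genes on the control diet (HD against Ctr, x axis) and on the selenium diet (Se_HD against Se_Ctr, y axis), coloured by family. Large outlined points passed on the control diet, and the dotted line marks equal change. The outlined points span -0.78 to 1.16 on the x axis and -0.23 to 0.10 on the y axis.

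The difference between the diets was itself tested as an interaction over the 30 libraries. By limma's unadjusted test, the log2 fold change with the high dose was more positive on the selenium diet in 10 channel genes (14.1%, where 1.82% of all genes were). In 4 it was more negative (5.63%, where 2.96% were). For a gene that fell in HD mice, a more positive value means a smaller fall, or none, on the selenium diet. After adjustment 0 genes passed in limma (0.0%), and 0 channel genes passed in edgeR and in DESeq2. Kcnk2 had the smallest p, with a difference of 0.46 (standard error 0.16), followed by Kcnk3 with 0.58 (standard error 0.21) and Kcnk6 with -0.80 (standard error 0.31). Of the 14 genes lower in HD mice 8 passed this test. They were chosen on the HD and Ctr values that enter it, so the count is a description. Without HD replicate 2, 4 genes passed in all in place of 14, and without HD replicates 2 and 5 also 4, namely Kcnk2 (0.35), Kcnk3 (0.64), Kcna6 (0.32) and Kcnt1, which was not among the 14. In the same test 15 of 16 microglia markers (median -0.99) and 3 of 12 astrocyte markers were lower, and 2 of 12 interneuron, 2 of 14 endothelium and mural cell, 1 of 12 excitatory neuron and 1 of 12 oligodendrocyte markers were higher. Of 12 choroid plexus markers 11 were below zero (median -0.73) with 0 passing. Their part in the channel genes was not tested. Kcnq3 was at 0.52 without Ctr replicate 2 in place of 0.89 and did not pass.

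Averaged over both diets, the high dose went with 15 lower (21.1%, where 3.81% of all genes were) and 2 higher channel genes (2.82%, where 5.28% were). A fall on 1 diet alone can carry this average. The 14 genes lower in HD than in Ctr mice had a median of -0.48 there. In Se_HD against Se_Ctr mice their median was -0.07 and 0 passed. The lower genes that had not passed in HD against Ctr were Kcnj14 (-0.65), Kcnc1 (-0.20), Kcnd1 (-0.20), Kcnv1 (-0.23) and Kcns2 (-0.22), so that 4 of 7 silent subunits were lower. Kcns2 lost its call in 9 of 20 fits that left out 1 library and was at -0.14 without Se_Ctr replicate 4. In this contrast 16 of 16 microglia (median 0.58), 5 of 12 astrocyte and 2 of 8 striatum markers were higher, 2 of 12 excitatory neuron markers were lower, and of 12 interneuron markers 2 were lower and 1 was higher. All 12 choroid plexus markers were above zero (median 1.09), with 1 passing, and 1 of 12 oligodendrocyte and 1 of 7 erythrocyte markers were lower. The part of these markers was not tested. After adjustment 0 channel genes passed in limma, where 45 genes (0.21%) did, 0 in edgeR (0.318% of all genes) and 1, Kcnab1, in DESeq2 (0.637%). Without HD replicate 3, Kcnab1 also passed in limma (0.656%).

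The low dose on the selenium diet went with 2 lower genes, Kcnv1 (-0.31) and Kcnt2 (-0.29), and 1 higher gene, Kcnip1 (0.27), where 1.51% and 1.8% of all genes were called lower and higher. Kcnip1 was at 106, 96.2, 103, 112 and 85.2 in Se_LD and 77.9, 70, 102, 86 and 80.2 in Se_Ctr mice, with overlap. It lost its call in 6 of 10 fits that left out 1 library. After adjustment 0 genes passed with limma (0.0%), edgeR or DESeq2. The count of 3 was 7 without Se_Ctr replicate 4, 6 without Se_LD replicate 3 and 5 without Se_LD replicate 2. Of 8 thalamus markers 6 were higher in Se_LD mice (median 0.75, all 8 above zero), with scores of 1.40 and 1.56 in Se_LD replicates 1 and 4. Of 16 microglia markers 1 was lower, of 14 endothelium and mural cell markers 1 was higher, and all 12 choroid plexus markers were below zero (median -0.79) with 0 passing. With Se_LD replicates 1 and 4 left out, Kcnv1 (-0.13), Kcnt2 (-0.19) and Kcnip1 (0.19) did not pass, and 4 other genes did (Kcne2, Kcnj13, Kcnk3 and Kcnk9).

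Selenium alone was read from Se_Ctr against Ctr mice. Here 4 channel genes were lower, Kcna6 (-0.21), Kcnk12 (-0.75), Kcns1 (-0.51) and Kcnk3 (-0.31), where 2.22% of all genes were, and 0 were higher, where 1.78% were. After adjustment 0 genes passed with limma (0.0%), edgeR or DESeq2. Without Ctr replicate 2 the count was 8, and without Ctr replicate 1 or Se_Ctr replicate 1 or 2 it was 2. Kcnk3 lost its call in 8 of 10 fits that left out 1 library and was at -0.19 without Ctr replicate 1. Kcna6 lost it in 2 of 10, Kcns1 and Kcnk12 each lost it in 4 of 10, and Kcnk12 was at -0.41 without Se_Ctr replicate 4. In this comparison 2 of 7 erythrocyte (median -0.78), 2 of 14 endothelium and mural cell and 1 of 12 astrocyte markers were lower, and 11 of 12 choroid plexus markers were above zero (median 1.02) with 0 passing limma's unadjusted test. Their part was not tested. Over all 3 mercury levels, selenium went with 5 higher and 5 lower channel genes (7.04% each, where 2.82% and 3.8% of all genes were), and 0 channel genes passed after adjustment with limma (0.0%), edgeR or DESeq2. The higher ones were Kcnab1 (0.17), Kcnc2 (0.16), Kcnip2 (0.17), Kcns2 (0.17) and Kcnn2 (0.12). The lower ones included Kcnk6 (-0.46), Kcnj2 (-0.25), Kcnj10 (-0.23) and Kcnj14 (-0.42), so that 3 of the 5 were inward rectifiers. The contrast averages the 3 levels, and some of these genes differed mainly at the high dose. Kcnab1 averaged 1336 in Se_HD and 998 in HD mice, but 1354 in Se_LD and 1376 in LD mice. Kcnk6 averaged 26.4 in Se_HD and 56.9 in HD mice, but 33.0 in Se_LD and 35.0 in LD mice. Others did not, such as Kcns2, at 319 in Se_Ctr and 261 in Ctr mice. In the same contrast 10 of 16 microglia, 5 of 12 astrocyte, 2 of 7 erythrocyte, 1 of 12 oligodendrocyte and 1 of 14 endothelium and mural cell markers were lower. Of 12 interneuron markers 1 was higher, and their part was not tested.

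Over all 6 groups, 16 channel genes passed limma's F test unadjusted (22.5%, where 6.91% of all genes did). Kcnab1 alone passed after adjustment, with an adjusted p of 0.0499, where 95 genes (0.444%) passed. With edgeR 3 channel genes passed (1.4% of all genes) and with DESeq2 5 (2.07%), and without HD replicate 3 limma called 3 (0.801%). The adjusted p of Kcnab1 crossed the threshold in many settings. It was under 0.05 in 4 of 10 other settings and in 7 of 30 fits that each left out 1 library, and ran from 0.00358 to 0.33. With sets of consecutive library numbers as a covariate, 0 channel genes passed after adjustment (0.369% of all genes).

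A pair of channel genes varied between libraries along with choroid plexus markers. Kcne2 and Kcnj13 are known from the choroid plexus epithelium. Kcne2 was between 4.83 and 156 normalized counts in Ctr mice, 1.98 and 204 in LD, 34.2 and 189.7 in HD, 28.7 and 124 in Se_Ctr, 1.85 and 215 in Se_LD and 60.6 and 196 in Se_HD mice. Kcnj13 was listed at 0 in LD replicate 4 and Se_LD replicate 5 and reached 66 in Se_HD replicate 4. In the same libraries the summed counts of 12 choroid plexus markers ran from 317.5 to 39214, and the 5 libraries with the lowest sums were the 5 with the lowest Kcne2. The sums were 881.4 to 32425.2 in Ctr and 7239 to 30908.6 in HD mice, and their part in the channel genes' fold changes was not tested. The fold changes of Kcne2 (1.57) and Kcnj13 (0.56) in HD mice did not pass, and with a choroid plexus covariate 12 channel genes were lower in HD mice in place of 14.

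**Figure D5:**
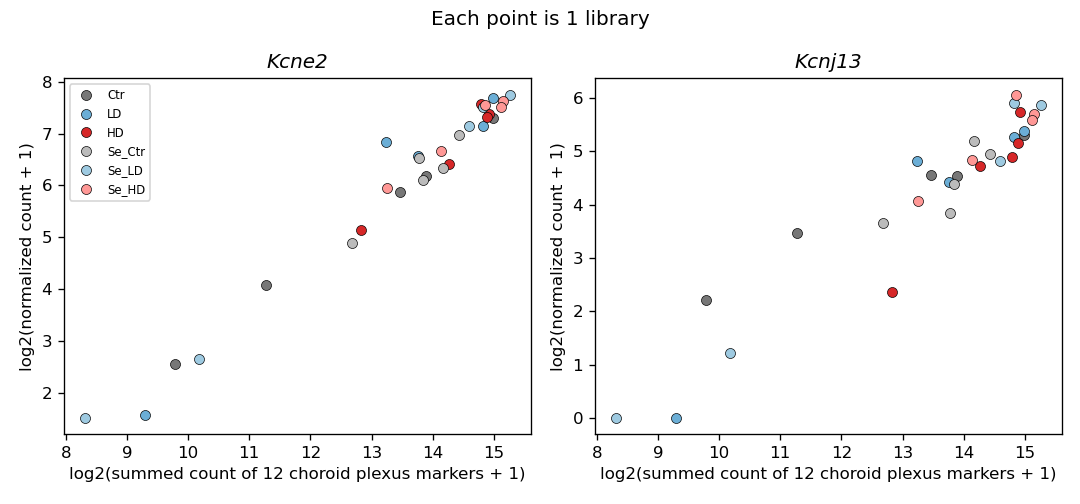
Log2 of the normalized count plus 1 of Kcne2 (left) and Kcnj13 (right) against log2 of the summed normalized count of 12 choroid plexus markers plus 1, 1 point for each of the 30 libraries, coloured by group. Both genes rise with the markers across libraries of all 6 groups, from summed counts of 317.5 to 39214.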

How the data were processed

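Hippocampus RNA of 30 mice was sequenced as single-end stranded libraries. The authors trimmed reads with TrimGalore 0.4.2, mapped them with Hisat2 to the Ensembl build NCBIM37, counted them per gene with FeatureCounts and removed genes with a row sum under 10. The deposited signal values are these read counts divided by DESeq2's size factors, 1 per library. Dividing each value by the library's smallest step gave whole reads within 0.001, and these reads served edgeR and DESeq2. Whether counting used strand is not given in the sources used here, so reads of overlapping antisense genes may be included.

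Symbols, positions and exon lengths came from the annotation of the same build (21326 of 21412 identifiers had a symbol). Groups came from the sample labels. Values were raised by 1, taken to log2 and modelled by limma 3.58.1 (R 4.3.3, trended moderated variance), over genes with a sum of at least 10 in the fit (20031 on the control diet, 19679 on the selenium diet, 21383 over all 30 libraries). "Passed", "rose", "fell", "higher" and "lower" for single genes mean an unadjusted p under 0.05, and adjusted values are Benjamini-Hochberg over all genes tested. Fold changes are on the log2(value + 1) scale, which understates changes of low genes. Single genes were also compared by exact two-sided permutation of 5 against 5. Named genes are those with an unadjusted p under 0.05 in the contrasts with a control or the F test over the 6 groups, the 5 highest per kb, and genes listed for their known role. Other genes named in the average and direct contrasts were chosen after their values were seen. Results of a few genes are not reported here by name, but they are included in the counts. The members and lists were chosen with earlier results of these data known. The fits were tested on simulated data. As alternatives the pseudocount was set to 0.1 or 10, genes were filtered at a mean count of 10 or not at all, and the fit was repeated with quantile normalization, edgeR 4.0.16, DESeq2 1.42.0, no trend, all 30 libraries in one fit, a covariate for sets of 6 consecutive library numbers or for choroid plexus markers, and each library left out. Leaving out HD replicates 2 and 5, Ctr replicate 2 with HD replicate 2, or Se_LD replicates 1 and 4 was added after seeing the data. Replicates are numbered in accession order and pair no samples. Python 3.11.15 with pandas 2.3.3, numpy 2.4.6 and matplotlib 3.10.9 was used for tables and figures.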

Additional observations from a re-analysis of the deposited data

Results flagged for a closer look

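Within groups of 5, the highest or lowest library was marked where its gap to the nearest other library was over 0.71 of the group's range (Dixon's criterion). This held in 23 of 288 groups checked, where chance gives about 1 in 20, or 14.4. Ctr replicate 2 was the highest for Kcna2 (0.944), Kcnq3 (0.94) and Kcnma1 (0.721). HD replicate 2 was the highest for Kcne1l (0.779) and Kcnma1 (0.87), and HD replicate 5 for Kcnt1 (0.761). Se_Ctr replicate 4 was the highest for Kcna6 (0.734), Kcnd2 (0.79), Kcnj11 (0.842) and Kcnk2 (0.758). LD replicate 2 was the highest for Kcna4 (0.799) and the lowest for Kcnc1 (0.804), and LD replicate 3 was the lowest for Kcnj8 (0.714). Ctr replicate 3 was the highest for Kcnk13 (0.843) and Ctr replicate 4 for Kcnv1 (0.745). On the selenium diet other marks were Se_HD replicate 4, lowest for Kcnc2 (0.747), and the highest libraries Se_HD replicate 5 for Kcnd3 (0.767), Se_HD replicate 1 for Kcnh7 (0.798) and Kcnj11 (0.726), Se_LD replicate 1 for Kcnj11 (0.742) and Se_HD replicate 2 for Kcnt2 (0.731).

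The effect of the high dose differed between the diets, at an unadjusted p under 0.05 in the limma interaction test and at none after adjustment, in 14 genes. On the log2 scale the effect on the selenium diet minus that on the control diet was 0.46 for Kcnk2, 0.58 for Kcnk3, 0.39 for Kcnip4, 0.65 for Kcnab3, 0.29 for Kcna6, 0.41 for Kcnd2, 0.42 for Kcnn1, 0.96 for Kcnk12, 0.89 for Kcnq3 and 0.33 for Kcnab1. It was -0.8 for Kcnk6, -0.44 for Kcnj10, -0.4 for Kcnip3 and -1.1 for Kcne1l. Leaving out 1 library moved some of these by over 1.5 times and ended the call: Kcnq3 was at 0.52 without Ctr replicate 2, Kcnk12 at 0.62 without Se_Ctr replicate 4, and Kcne1l at -0.61 and Kcnip3 at -0.25 without HD replicate 2. Kcnab1 lost the call in 13 of 20 such fits.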

How the results depend on the processing

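The labels give no replicate numbers. With sets of 6 consecutive library numbers as a covariate, each set holding 1 library of every group, 15 channel genes were lower and 4 higher in HD mice. The number of channel genes lower in HD than in Ctr mice was 11 to 17 over the settings other than leaving out 1 library and 12 to 18 when each library was left out, against 14. Higher genes in HD mice numbered 5 in place of 3 with all 30 libraries in one fit, and 1 to 5 when a library was left out. For Se_HD against Se_Ctr mice the count of 5 was 3 with DESeq2, 2 with all 30 libraries in one fit, and 2 to 5 without single libraries. For Se_LD against Se_Ctr mice the count of 3 was 5 with quantile normalization and 5 with a choroid plexus covariate, and 2 to 7 without single libraries. Leaving out single libraries gave 1 to 3 genes for LD against Ctr, 11 to 20 for HD against LD, 2 to 8 for Se_Ctr against Ctr and 4 to 15 for the interaction, which gave 4 without HD replicates 2 and 5. No named gene changed direction in a contrast it passed, among the contrasts checked gene by gene. HD against LD and selenium averaged over the 3 doses were not checked in this way. Low counts limit Kcnmb1, Kcnj14 and Kcnh5, and the cause of these shifts was not tested.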
